A study of Mus musculus with 2 samples.

Results

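Costimulatory and inhibitory receptors of lymphocytes were examined as a set of 10 genes in scRNA-Seq of lung group 2 innate lymphoid cells (ILC2s). The genes were Icos, Cd28, Tnfrsf4, Tnfrsf9, Tnfrsf18, Pdcd1, Ctla4, Tigit, Cd200r1 and Lag3. They were 10 of the 32285 genes counted in the files. ILC2s were sorted from mouse lungs as live cells without lineage markers and with CD90.2, ST2 and Sca-1. The cells of several mice of 1 genotype were pooled into 1 library, so that the data consist of 1 WT library and 1 library labelled Pac1-KO. WT mice carried both copies of Dusp2, the gene of the phosphatase PAC1, and the Pac1-KO cells came from Pac1-/- mice, in which the gene was lost in every cell of the body and not in ILC2s alone. Both were on the C57BL/6J background, matched for sex and age as young adults, and no treatment is named for either library.

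Of 10866 WT barcodes with 56182065 UMIs (unique molecular identifiers, each 1 captured transcript), 8394 passed a filter that asked for 500 or more detected genes and no more than 10% of UMIs from mitochondrial genes. Of 9495 Pac1-KO barcodes with 60283285 UMIs, 7087 passed. The cells that passed had a median depth of 4186.5 UMIs in the WT and 5577 UMIs in the Pac1-KO library. Shares of cells and all comparisons between kinds of cells were therefore read after each cell had been thinned at random to 1500 UMIs. This kept 7634 WT cells and 6564 Pac1-KO cells, and left out 760 and 523 shallower ones. At this depth 92.0% of WT and 89.5% of Pac1-KO cells held at least 3 of 10 ILC2 markers, among them Gata3 and Il1rl1, the gene of ST2. Dusp2 had 1419 UMIs in WT and 5 UMIs in Pac1-KO, as the labels state. The libraries shared 29 barcodes, 15 of them in cells that passed in both. With 1 library per genotype there was no replicate check and no test between genotypes, and every 95% interval below covers counting error only.

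Lymphocytes read their surroundings through paired surface receptors. CD28 and ICOS are immunoglobulin-family receptors that bind B7-family ligands and add to activation, whereas CTLA-4 competes for the ligands of CD28 and PD-1 recruits phosphatases that dampen signalling. OX40, 4-1BB and GITR, encoded by Tnfrsf4, Tnfrsf9 and Tnfrsf18, belong to the TNF receptor superfamily and signal through TRAF adaptors to NF-kB. TIGIT, LAG-3 and the CD200 receptor are inhibitory receptors for nectin-like molecules, MHC class II and CD200. In ILC2s, ICOS, GITR and PD-1 are known as surface receptors that bear on survival and on release of IL-5 and IL-13.

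In the GRCm38 annotation all 10 are protein-coding genes, and several are neighbours. Cd28 (chr1:60716800-60773359), Ctla4 (chr1:60887000-60915832) and Icos (chr1:60977927-61000320) follow each other on the plus strand, with 114 kb between Cd28 and Ctla4 and 62.1 kb between Ctla4 and Icos. Pdcd1 lies farther along the same chromosome on the minus strand, at chr1:94038305-94052553. Tnfrsf4 (chr4:156013843-156016612) and Tnfrsf18 (chr4:156026164-156028895) are 9.55 kb apart on the plus strand, and Tnfrsf9 lies at chr4:150914562-150946102. Tigit (chr16:43648867-43664146) and Cd200r1 (chr16:44765736-44794978) share a chromosome without being adjacent, and Lag3 is at chr6:124904361-124911705. Tnfrsf9 overlaps Camta1 and Tnfrsf18 overlaps the antisense gene Gm16008, both on the opposite strand. Neighbours did not share a level: Icos was among the highest of the set, whereas Cd28 and Ctla4, from the same gene cluster, were among the lowest.

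The RefSeq promoter table (GRCm38.p6) held windows for 6 of the 10 genes, with a pair of start sites for Tnfrsf9, and the 250 bases before each of these 7 starts were searched on both strands. The sequences of the Pdcd1 and first Tnfrsf9 windows are shown because these genes were lower in Pac1-KO and higher in cells with Il5, Il13 and Calca, as described below. Neither holds a match to the 5 motifs searched, each named here, so the letters are in lower case. They are given 5′ to 3′ on the gene's strand, from chr1:94052554-94052803 (minus) and chr4:150919905-150920154 (plus), with GC contents of 60.4% and 43.2%.
Pdcd1: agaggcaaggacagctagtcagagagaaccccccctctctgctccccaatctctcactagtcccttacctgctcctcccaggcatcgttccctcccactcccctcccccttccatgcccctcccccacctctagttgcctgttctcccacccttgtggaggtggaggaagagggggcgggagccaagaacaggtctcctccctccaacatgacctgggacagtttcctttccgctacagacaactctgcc
Tnfrsf9: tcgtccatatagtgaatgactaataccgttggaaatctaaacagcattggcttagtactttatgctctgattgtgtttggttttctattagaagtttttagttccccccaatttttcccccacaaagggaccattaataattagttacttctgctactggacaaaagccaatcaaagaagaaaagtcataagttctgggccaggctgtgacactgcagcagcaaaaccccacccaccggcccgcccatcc
The window of the other Tnfrsf9 start held 2 matches, printed below with the motif in capitals. The NF-kB motif (GGG, 2 free bases and TTTCC) began 43 bases before the start and was found in 1.41% of 32851 promoter windows. The AP-1 motif TGANTCA began 15 bases before the start and was found in 6.75% of windows. Both lie in the 5′ untranslated part of 1 annotated Tnfrsf9 transcript.
NF-kB match, chr4:150927950-150927971: gcagctGGGGATTTCCcaggag
AP-1 match, chr4:150927978-150927996: ctcagtTGAGTCAcaggtc
The cAMP response element TGACGTCA, present in 1.55% of all windows, and its core TGACG, present in 17.8%, were in none of the 7 windows. The GATA motif AGATAA, present in 9.99% of all windows, was in that of Tigit. Such matches describe the letters of these windows and not binding.

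The receptors spanned a wide range of levels, from genes found in a large share of cells to genes at the edge of detection (plot of levels by library). Levels are UMIs of a gene per 1000000 UMIs of the cells that passed (CPM), and 3′ capture gives about 1 count per transcript whatever its length. Tnfrsf18 was the highest, at 238 CPM in WT (95% interval 234 to 242) and 263 CPM in Pac1-KO (259 to 267). Icos followed at 213 CPM (209 to 217) and 222 CPM (219 to 226). Cd200r1 was at 95.6 CPM (93.0 to 98.2) and 103 CPM (101 to 106), and Pdcd1 at 68.5 CPM (66.4 to 70.8) and 44.9 CPM (43.2 to 46.7). These 4 genes held most of the receptor UMIs. Tnfrsf9 came next at 22.2 CPM (20.97 to 23.5) in WT and 11.5 CPM (10.7 to 12.4) in Pac1-KO. Tnfrsf4 was at 7.86 CPM (7.13 to 8.64) and 4.97 CPM (4.42 to 5.58), and Cd28 at 5.84 CPM (5.22 to 6.52) and 10.9 CPM (10.0 to 11.7). These last genes stood in the opposite order in the libraries, with Tnfrsf4 above Cd28 in WT and below it in Pac1-KO. Ctla4 had 2.07 CPM (1.71 to 2.49) in WT and 2.62 CPM (2.22 to 3.07) in Pac1-KO. Tigit, with 26 UMIs in WT and 19 UMIs in Pac1-KO, and Lag3, with 13 and 4 UMIs, were at the edge of detection and enter no ratio at the minimum of 50 UMIs. Neighbours in this order had separate counting intervals, except Tigit and Lag3 in WT and Tnfrsf9 and Cd28 in Pac1-KO.

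**Figure D1:**
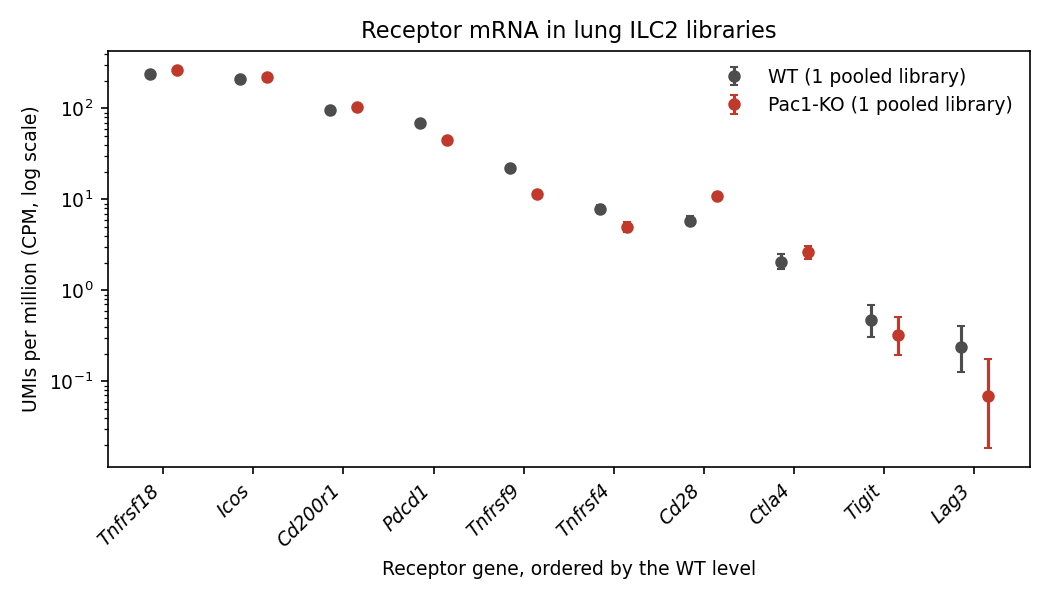
Level of each receptor gene in CPM (log scale) in the WT and Pac1-KO libraries, ordered by the WT level, where points are the summed cells of 1 pooled library and bars are exact 95% Poisson intervals. Tnfrsf18, Icos, Cd200r1 and Pdcd1 lie between 44.9 and 263 CPM, while Tigit and Lag3 lie below 1 CPM in both libraries.

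Read as shares of cells at 1500 UMIs, the same order held. Tnfrsf18 was detected in 28.5% of WT cells (27.5 to 29.5, exact Clopper-Pearson) and 30.7% of Pac1-KO cells (29.6 to 31.8). Icos was found in 19.7% (18.8 to 20.6) and 20.2% (19.2 to 21.2), Cd200r1 in 13.0% (12.3 to 13.8) and 13.8% (13.0 to 14.7), and Pdcd1 in 8.32% (7.71 to 8.96) and 5.88% (5.32 to 6.48). The share for Tnfrsf9 was 2.71% (2.36 to 3.10) in WT and 1.39% (1.12 to 1.70) in Pac1-KO, and for Tnfrsf4 1.09% (0.867 to 1.35) and 0.488% (0.334 to 0.688). Cd28 was found in 0.825% (0.635 to 1.05) of WT and 1.20% (0.954 to 1.498) of Pac1-KO cells. For Pdcd1, Tnfrsf9 and Tnfrsf4, lower in Pac1-KO, and for Tnfrsf18, higher in Pac1-KO, the intervals of the libraries did not overlap, and for Cd28 they did. The share of all genes with such separate intervals is not given here. Ctla4 UMIs were in 14 WT and 19 Pac1-KO cells, Tigit UMIs in 4 and 3 cells and Lag3 UMIs in 3 cells and 1 cell. A floor of 3 counts over all cells, which is not the exact interval used for the shares, was 0.0393% in WT and 0.0457% in Pac1-KO. Tigit and Lag3 were thus at or near the limit of detection at this depth. Without thinning, where Pac1-KO cells are deeper, the shares were 58.8% and 68.6% for Tnfrsf18, 38.7% and 45.7% for Icos and 25.0% and 20.9% for Pdcd1. The background of free RNA was read in cells with at least 3 markers of B, stromal, endothelial or epithelial cells, of which there were only 9 in WT (median 4071 UMIs) and 23 in Pac1-KO (median 3926 UMIs). No receptor gene was found in more than 2 of either group. In Pac1-KO, Icos was in 0 of 23 such cells (interval up to 14.8%), Tnfrsf18 in 1 and Cd200r1 in 2. Il5, Il13 and Calca, which define the kinds of cells below, were in 2, 0 and 1 of the 9 WT and in 1, 0 and 1 of the 23 Pac1-KO cells, and a part of free RNA in that status was not tested. The upper bounds that so few cells give lay below the share in the other cells only for Icos and Tnfrsf18 in Pac1-KO, so for the other genes, and for all of them in WT, a part from free RNA could not be bounded.

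Icos was unlike the other well-detected genes in how its UMIs were spread over cells. Among cells with Icos, 29.9% in WT and 30.3% in Pac1-KO held more than 1 UMI, and single thinned cells held up to 11 and 14 UMIs. For Tnfrsf18, with a higher level, these shares were 20.4% and 23.0%, and the highest cells held 4 and 7 UMIs. The variance of the count over its mean, which is 1 for evenly spread counts, was 1.86 and 2.03 for Icos, 1.14 and 1.21 for Tnfrsf18, 1.15 and 1.18 for Pdcd1 and 1.10 and 1.09 for Cd200r1. Cells with Icos more often held several of its UMIs than cells with the other 3 genes.

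The first comparison asked which receptors differed between Pac1-KO and WT ILC2s. Tnfrsf9, Tnfrsf4 and Pdcd1 were lower in Pac1-KO, Cd28 was higher, and Icos, Tnfrsf18 and Cd200r1 were about level. The median gene had a log2 ratio of 0.19 between the libraries as counted, and ratios are given relative to it. The relative log2 ratio was -1.13 for Tnfrsf9 (95% interval -1.27 to -0.995), -0.85 for Tnfrsf4 (-1.07 to -0.63) and -0.80 for Pdcd1 (-0.87 to -0.73). It was 0.71 for Cd28 (0.51 to 0.91). In folds, the level in Pac1-KO relative to the median gene was 0.456 of that in WT for Tnfrsf9, 0.555 for Tnfrsf4 and 0.575 for Pdcd1, and it was 1.63 times that in WT for Cd28. For Icos the ratio was -0.12 (-0.16 to -0.09), for Tnfrsf18 -0.05 (-0.08 to -0.01), for Cd200r1 -0.07 (-0.13 to -0.02) and for Ctla4 0.15 (-0.21 to 0.52). Icos, Tnfrsf18 and Cd200r1 turn to 0.07, 0.14 and 0.11 as counted, so their direction depends on the scaling and their sizes are small under either.

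Of the 8 receptors with at least 50 UMIs in both libraries together, 1 was at least 1.5-fold higher and 3 were at least 1.5-fold lower in Pac1-KO. Of all 12427 genes with 50 UMIs, 8.2% were 1.5-fold higher and 12.8% were 1.5-fold lower. The median of the 8 receptors was -0.10 against 0 for all genes by construction. The call for Cd28 was lost when UMIs were thinned, where its ratio was 0.54, and at a 2-fold limit only Tnfrsf9 stayed past it.

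**Figure D2:**
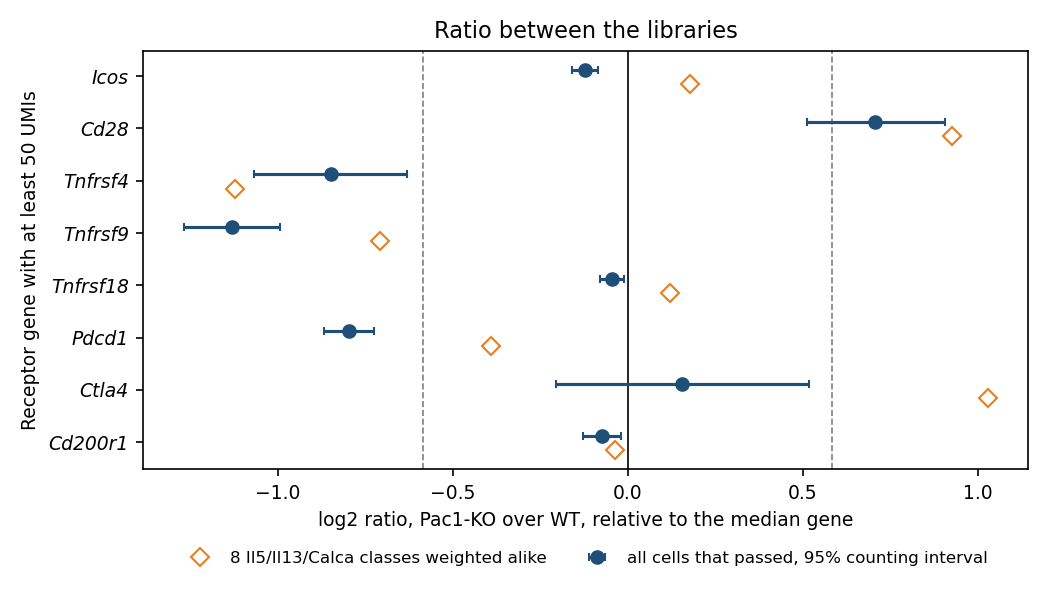
Log2 ratio of Pac1-KO over WT relative to the median gene for the 8 receptors with at least 50 UMIs. Filled points with exact 95% counting intervals are all cells that passed, open diamonds (no interval) are cells thinned to 1500 UMIs with the same mix of cell classes in both libraries, and dashed lines mark 1.5-fold. Tnfrsf9, Tnfrsf4 and Pdcd1 lie left of the lower line and Cd28 right of the upper one, while the diamond of Pdcd1 lies inside at -0.39 and that of Ctla4, which rests on fewer than 50 thinned UMIs, lies outside at 1.03.

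The mix of cells differed between the libraries. At 1500 UMIs, Il5, the gene of the main ILC2 eosinophil cytokine, was detected in 33.0% of cells from WT and 19.6% of those from Pac1-KO. Il13, a driver of mucus production, was in 13.8% and 9.11%, and Calca, the gene of the neuropeptide CGRP, in 30.6% and 21.6%. To hold the mix equal, cells were divided into 8 classes by presence of these 3 transcripts, and the classes were given the same weight in both libraries. In the thinned cells the ratio of Pdcd1 was -0.67 before and -0.39 after weighting, which is within 1.5-fold. Tnfrsf9 was at -1.11 and -0.71, Tnfrsf4 at -1.37 and -1.12 and Cd28 at 0.54 and 0.93. Icos was at -0.11 and 0.18, Tnfrsf18 at -0.02 and 0.12 and Cd200r1 at -0.08 and -0.04. Ctla4 was at 0.78 and 1.03, against 0.15 with all UMIs, but its thinned UMIs were fewer than the minimum of 50. Within single classes with at least 20 UMIs, Pdcd1 was lower in Pac1-KO in 6 of 8, Tnfrsf9 lower in 5 of 6 and Cd28 higher in 4 of 4. These ratios ran from -0.72 to 0.13 for Pdcd1, from -1.39 to 0.75 for Tnfrsf9 and from 0.23 to 1.72 for Cd28. Most of the class intervals of Pdcd1 and Tnfrsf9 included 0. The share of all genes with such directions is not given here. Tnfrsf18 was higher in Pac1-KO in 7 of 8 classes, by at most 0.31, and Cd200r1 was higher in 4 and lower in 4. In cells without Il5, Il13 and Calca, the largest class with 46.6% of WT and 63.0% of Pac1-KO cells, Tnfrsf9 had 57 and 28 UMIs (ratio -1.39), Tnfrsf4 had 38 and 10 UMIs (-2.29) and Pdcd1 had 212 and 168 UMIs (-0.70). The lower values of these 3 genes in Pac1-KO were also present where none of the 3 transcripts was found.

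The second comparison asked whether receptor levels differed between cells with and without a UMI of Il5, Il13 or Calca in the same library. These cells were at equal depth, and the 2 libraries give 2 readings of each ratio. They are readings of different genotypes and not replicates. Icos, Cd28, Tnfrsf9, Tnfrsf18 and Pdcd1 were at least 1.5-fold higher in cells with Il5 in both libraries, 5 of the 6 receptors with enough UMIs in both, where 4.41% of 8617 genes were. The exception was Cd200r1. For Calca the same 5 passed, against 3.82% of genes. For Il13 it was 3 of the 6, Icos, Tnfrsf9 and Pdcd1, against 2.07%. Tnfrsf18 lay near the limit and did not pass it for Il5 or Calca when ratios were left as counted, and Icos did not pass it for Il13 with another random thinning. With all UMIs, Pdcd1 (0.47) and Icos (0.42) did not pass it for Il13 in WT. Tnfrsf18 then did not pass it for Il5 (0.43 in WT and 0.43 in Pac1-KO) or for Calca in Pac1-KO (0.40). No receptor was 1.5-fold lower in both libraries in any of the 3 comparisons, against 1.39%, 1.18% and 2.66% of genes for Il5, Calca and Il13.

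Icos had 3.05 UMIs per 10000 in WT cells with Il5 and 1.45 in those without, and 3.87 and 1.64 in Pac1-KO. The relative log2 ratios were 1.24 (1.12 to 1.36) and 1.44 (1.31 to 1.57). It was found in 28.5% of WT cells with Il5 and 15.3% without, and in 28.8% and 18.1% of Pac1-KO cells. By Calca status its ratios were 1.17 in WT and 1.25 in Pac1-KO, and by Il13 status 0.71 and 1.07. Tnfrsf9 had relative log2 ratios of 1.85 (1.45 to 2.24) in WT and 2.29 (1.71 to 2.88) in Pac1-KO by Il5 status, from 141 against 90 UMIs and 53 against 51 UMIs. Its ratios were 1.23 and 2.14 by Il13 status and 1.27 and 1.28 by Calca status. The Il13 ratio in Pac1-KO was 0.52, within 1.5-fold, when barcodes with 2 or more markers of the T cell list were left out. In cells with Il5 its level was 0.373 UMIs per 10000 in WT and 0.275 in Pac1-KO.

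Pdcd1 had 0.937 UMIs per 10000 in WT cells with Il5 and 0.471 in those without. In Pac1-KO the values were 0.929 and 0.326, so that the level was about the same in Il5-positive cells of both libraries and lower in Pac1-KO among the others. The ratios were 1.17 (0.95 to 1.39) and 1.71 (1.43 to 1.99) by Il5, 0.75 and 1.07 by Il13 and 0.79 and 1.15 by Calca status. Whether these ratios differ between the genotypes could not be tested with 1 library each. Tnfrsf18 showed smaller ratios, 0.68 and 0.81 by Il5, 0.63 and 0.68 by Calca and 0.51 and 0.46 by Il13 status. Cd28 had ratios of 1.71 and 2.36 by Il5 status, from 40 against 28 UMIs in WT and 50 against 46 UMIs in Pac1-KO. The WT ratio was 0.74 with another random thinning and 0.54, within 1.5-fold, when cells were thinned to 1000 UMIs. By Il13 status Cd28 was at 0.06 and 0.23, with intervals over 2 log2 units wide, and under the alternatives these values ran from -0.25 to 0.81 in WT and from -0.55 to 2.41 in Pac1-KO, so that no direction can be read. Its Calca ratios of 1.18 and 1.53 rest on 32 and 40 UMIs in the positive cells, and in WT the ratio was -0.15 when cells were thinned to 1000 UMIs.

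Cd200r1 stayed within 1.5-fold in all 6 readings. Its ratios were 0.25 and 0.18 by Il5, 0.10 and -0.24 by Il13 and 0.30 and 0.37 by Calca status. With barcodes that held 2 of the 10 T cell markers left out, its Pac1-KO ratio was 0.67 by Calca status, past 1.5-fold. By Il13 status it then turned to 0.35. Tnfrsf4 had enough UMIs only in WT, where its ratio was 0.20 by Il5, 1.06 by Il13 and 0.35 by Calca status. The Il13 ratio was 0.11 without the few barcodes that held 2 of Cd3d, Cd3e, Trac, Cd4, Cd8a and Cd8b1 and 2.02 without all barcodes that held 2 of the 10 T cell markers, so that its size was not settled. In Pac1-KO, 12 of its UMIs were in the 598 cells with Il13 and 22 in the 5966 without. Ctla4 also lay under the minimum, with 13 UMIs in Pac1-KO cells with Il13 and 12 UMIs in those without, and 5 and 10 UMIs in WT.

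**Figure D3:**
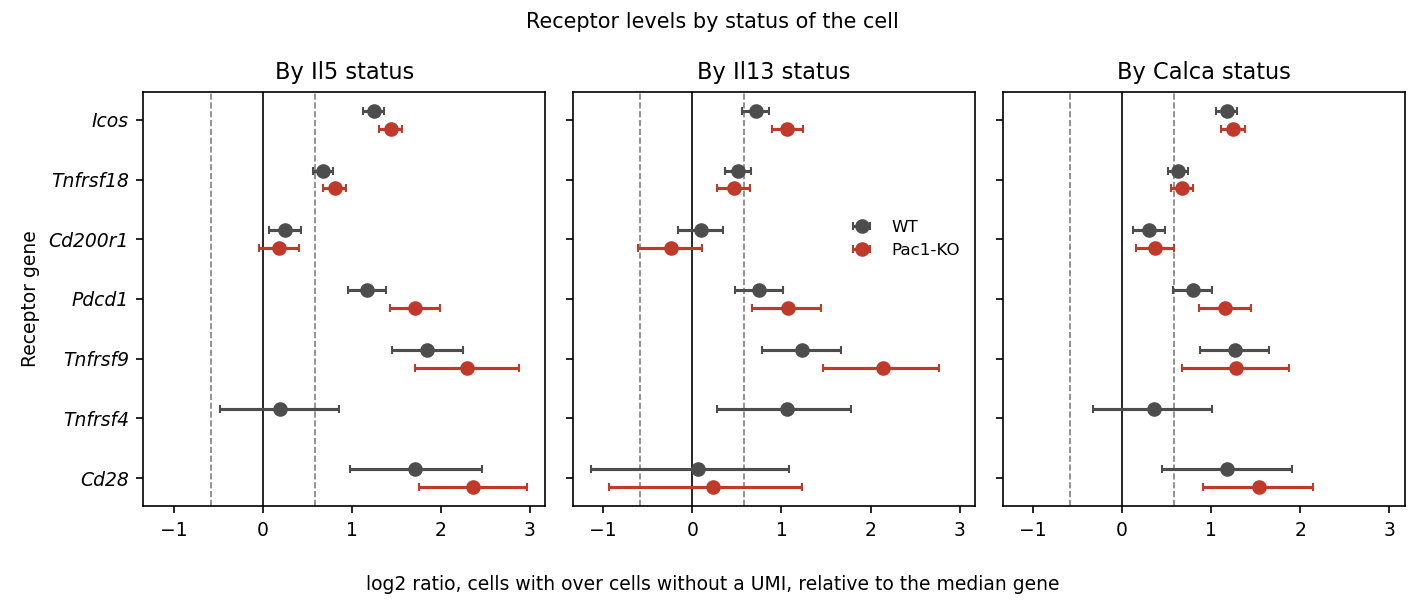
Log2 ratio of each receptor in cells with over cells without a UMI of Il5, Il13 or Calca, relative to the median gene, in WT and Pac1-KO cells thinned to 1500 UMIs, for ratios that rest on at least 50 UMIs. Bars are exact 95% counting intervals and dashed lines mark 1.5-fold. Icos, Pdcd1 and Tnfrsf9 lie right of the upper line in every panel, while the points of Cd200r1 lie between the lines.

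The levels of several genes also ordered by how many Il5 UMIs a cell held. Icos was at 1.45, 2.32, 3.29 and 4.21 UMIs per 10000 in WT cells with 0, 1, 2 to 3 and 4 or more Il5 UMIs, and at 1.64, 2.69, 3.77 and 6.88 in Pac1-KO. The top group held 606 WT and 281 Pac1-KO cells. Tnfrsf18 went from 2.09 to 3.67 in WT and from 2.41 to 5.15 in Pac1-KO, Pdcd1 from 0.471 to 1.21 and from 0.326 to 1.47, and Tnfrsf9 from 0.117 to 0.495 and from 0.0644 to 0.546. For Cd28 the ends were 0.0365 and 0.176 in WT and 0.0581 and 0.332 in Pac1-KO. Cd200r1 was between 0.944 and 1.08 in all 8 groups. Each of the 5 other genes was higher at every step in both libraries, although for Cd28, Pdcd1 and Tnfrsf9 the intervals of adjoining groups overlapped at most steps beyond the first. In WT those of Cd28 overlapped at the first step too, and those of Tnfrsf18 at both later steps. In the top group Icos was higher in Pac1-KO, with level intervals of 6.11 to 7.72 against 3.80 to 4.66. Tnfrsf18 was too, with 4.49 to 5.88 against 3.29 to 4.09. Icos was in 41.3% of Pac1-KO and 35.3% of WT cells of that group, and Tnfrsf18 in 45.9% and 39.9%. No interval was computed for these shares. The level intervals take UMIs as independent, whereas Icos UMIs were unevenly spread over cells, so its intervals are too narrow. For Pdcd1, Tnfrsf9, Cd28 and Cd200r1 (1.03 in WT and 1.04 in Pac1-KO) the intervals of the libraries overlapped in that group. The share of all genes with separate intervals there is not given, and the genotypes could not be tested with 1 library each. In cells without Il5 the Icos level was 1.45 (1.37 to 1.54) in WT and 1.64 (1.55 to 1.73) in Pac1-KO. By Calca UMIs in the same steps, Icos was at 1.52, 2.54, 3.29 and 4.15 in WT and at 1.67, 2.53, 3.97 and 6.26 in Pac1-KO. Cd200r1 was not level by Calca UMIs in WT, at 0.942 (0.876 to 1.01) without Calca and 1.45 (1.15 to 1.79) in the top group. In Pac1-KO it was at 1.01, 1.11, 1.33 and 1.04 in these steps. By Il13 UMIs Icos was not highest in the top group, at 1.85, 2.53, 3.56 and 2.37 in WT and at 1.93, 2.92, 4.85 and 3.73 in Pac1-KO, where that group had only 135 and 84 cells. In WT, Cd28 and Tnfrsf4 had 0 UMIs and 1 UMI in that group.

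**Figure D4:**
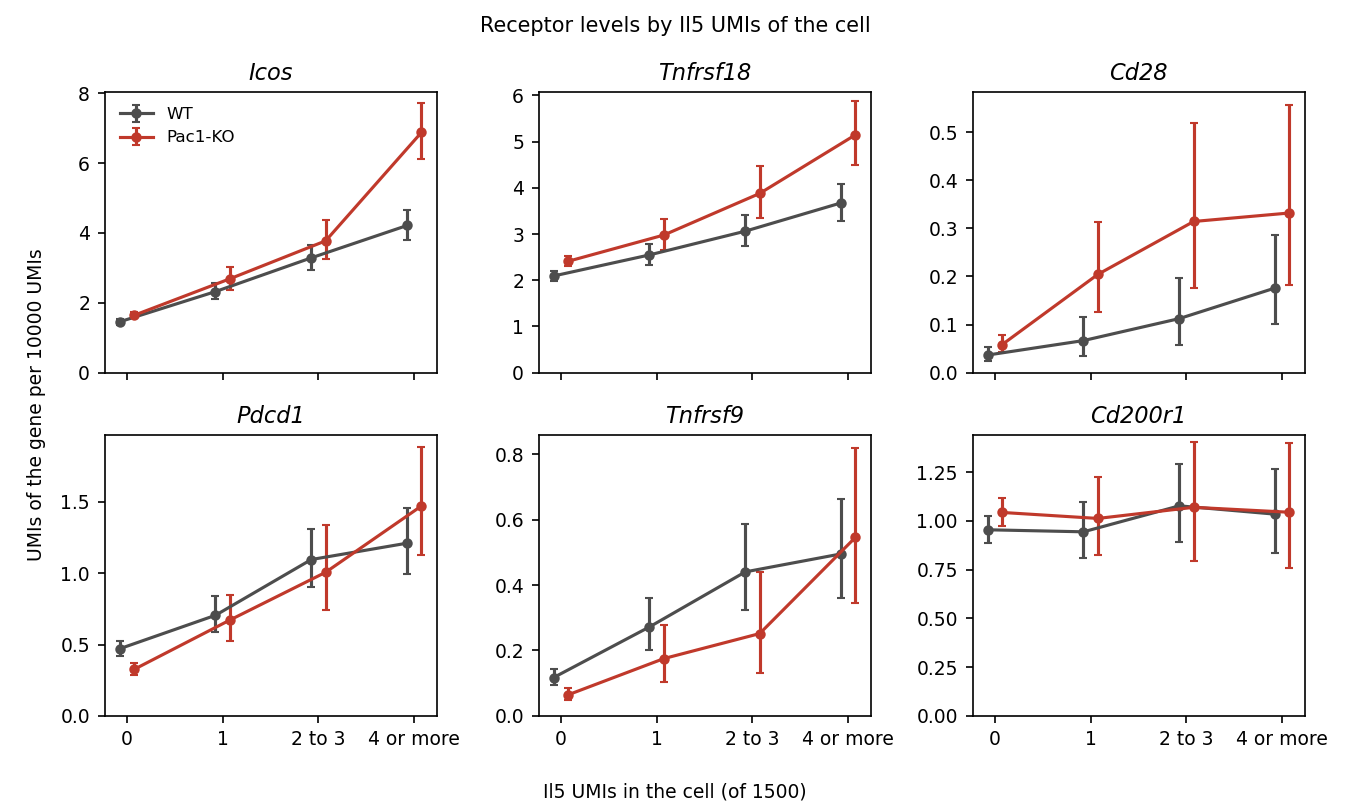
UMIs of each gene per 10000 UMIs (axis from 0) by the number of Il5 UMIs in the cell, at 1500 UMIs per cell, in WT and Pac1-KO, where bars are exact 95% Poisson intervals. All panels but that of Cd200r1 climb from left to right in both libraries, Icos from 1.45 to 4.21 in WT and from 1.64 to 6.88 in Pac1-KO, and Cd200r1 is level near 1.

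Across the 8 classes, Icos ran from 1.15 UMIs per 10000 in WT cells with none of the 3 transcripts to 4.01 in WT cells with all of them. In Pac1-KO the same classes had 1.43 and 5.66, and the highest class was that with Il5 and Calca but not Il13, at 5.80 against 3.68 in WT. Calca alone went with 2.24 in WT and 2.24 in Pac1-KO, Il5 alone with 2.33 and 2.44 and Il13 alone with 1.48 and 2.60. Tnfrsf9 ran from 0.107 to 0.787 in WT and from 0.0452 to 0.504 in Pac1-KO between the same end classes. Pdcd1 ran from 0.397 to 1.18 and from 0.271 to 1.18, and Tnfrsf18 from 1.98 to 4.01 and from 2.31 to 4.99. For Cd200r1 the classes lay between 0.671 and 1.19 in WT and between 0.560 and 1.25 in Pac1-KO, with no order by class. The smallest class had 159 WT and 105 Pac1-KO cells.

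**Figure D5:**
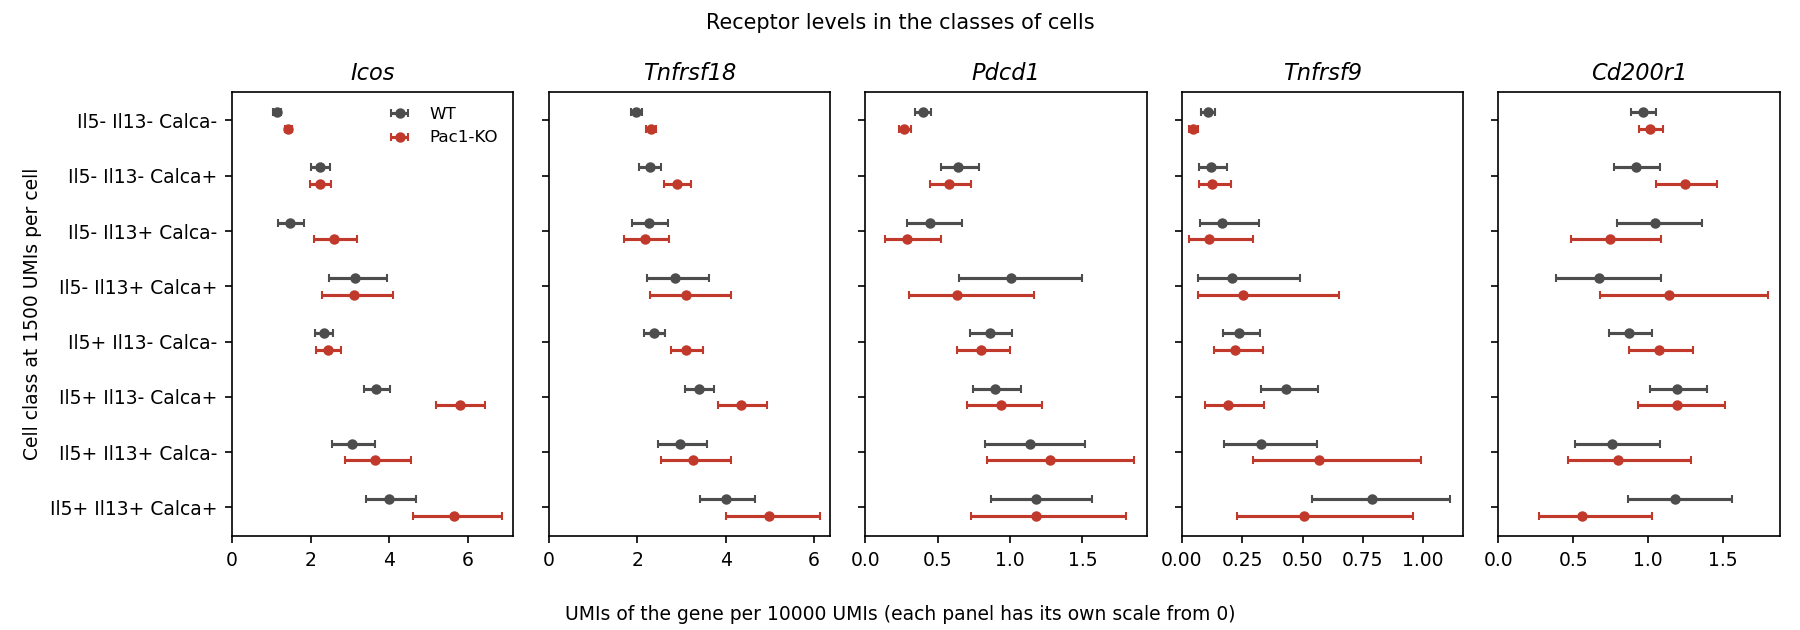
UMIs per 10000 UMIs of 5 receptors in the 8 classes of cells by presence of Il5, Il13 and Calca UMIs, in WT and Pac1-KO, with exact 95% Poisson intervals and a scale from 0 for each panel. Icos is lowest in the class without the 3 transcripts (1.15 and 1.43) and at 3.68 and 5.80 in the Il5+ Il13- Calca+ class, while Cd200r1 shows no such order.

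The genes with class profiles most like those of the receptors were sought among 4722 genes over the 16 classes of both libraries, which share cells' depth and the definition of the classes. For Icos they were Satb1 (Pearson r = 0.97), Hdlbp (0.96) and Tent5a (0.95). For Tnfrsf18 they were Fth1 (0.95), Homer1 (0.94) and Hist1h1c (0.93), and for Pdcd1 they were Ramp3 (0.92), a subunit of receptors of the calcitonin family, Ell2 (0.92) and Dot1l (0.92). For Cd200r1 the closest were Hbp1 (0.83), Pank2 (0.81) and Pip4k2b (0.81). The other 6 receptors had too few UMIs per class.

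Co-occurrence within cells was modest. Of the 10 receptors, the mean number found per thinned cell was 0.744 in WT and 0.740 in Pac1-KO, 45.5% and 44.9% of cells held none and 16.7% and 16.1% held 2 or more. In cells with Il5 the share with 2 or more was 24.2% in WT and 27.2% in Pac1-KO, against 13.0% and 13.4% in cells without. Of 45 pairs, 7 had at least 20 cells expected from the product of their shares in both libraries, and 2 of these, both with Pdcd1, had counting intervals above the product in both. No share over all gene pairs was computed. Icos and Pdcd1 were together in 166 WT cells, 1.33 times the product (1.13 to 1.55), and in 102 Pac1-KO cells, 1.31 times (1.07 to 1.59). Tnfrsf18 and Pdcd1 were at 1.20 (1.05 to 1.38) and 1.31 (1.11 to 1.53). Tnfrsf9 and Tnfrsf18 were at 1.51 (1.21 to 1.86) in WT and 1.29 (0.90 to 1.79) in Pac1-KO. Icos and Tnfrsf18, the highest genes, were nearer the product, at 1.11 (1.01 to 1.21) in WT and 1.04 (0.94 to 1.14) in Pac1-KO. Icos and Cd200r1 were at 0.99 and 1.05.

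Because T cells carry most of these receptors, T cell markers were read in the same cells. Cd8a and Foxp3, which mark cytotoxic and regulatory T cells, had no UMI in the thinned cells of either library, and Cd4 was in at most 0.0131% of cells. Other T cell genes were found, of which Cd3d, Cd3e and Trac were in a lower share of Pac1-KO than of WT cells. Cd3d was in 0.55% of WT and 0.27% of Pac1-KO cells, Cd3e in 1.22% and 0.62% and Trac in 1.31% and 0.32%. Trbc1 and Trbc2, T cell receptor constant genes that ILC2s are known to transcribe, were in a higher share of Pac1-KO cells. Trbc1 was in 31.0% of WT and 42.3% of Pac1-KO cells, and Trbc2 in 30.9% and 40.4%. Cd3g was in 14.1% and 10.4%. As these genes were widespread, 17.5% of WT and 23.0% of Pac1-KO cells held at least 2 of the 10 T cell markers. In these cells Icos was in 16.9% and 18.3%, against 20.3% and 20.7% in the rest, and Pdcd1 in 7.997% and 5.43%, against 8.39% and 6.02%. Others went the opposite way. Tnfrsf18 did so in Pac1-KO only, at 31.8% against 30.3%, with 27.5% against 28.7% in WT. Ctla4 was in 4 cells (0.299% against 0.159%) in WT and 6 cells (0.397% against 0.257%) in Pac1-KO. Of the 3 Pac1-KO cells with Tigit, 2 were among those with T cell markers. With barcodes that held at least 2 of Cd3d, Cd3e, Trac, Cd4, Cd8a and Cd8b1 left out (71 in WT and 26 in Pac1-KO), the same 4 receptors were past 1.5-fold between the libraries. This rule was added after the data were seen.

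A few barcodes held much of the least abundant genes. In Pac1-KO, 10 barcodes held 47.7% of the 153 Ctla4 UMIs and 1 of them held 16, whereas in WT the top 10 held 23.9% of 113 UMIs. Singled out after these values were seen, 17 Pac1-KO barcodes with at least 3 Ctla4 UMIs all held Gata3 and Il1rl1 UMIs, 13 held Il13 and 10 held Cd28, and 4 held Il17a, with 185 UMIs in all. Of all Pac1-KO cells that passed, 90.7% held Gata3, 92.9% Il1rl1, 21.4% Il13, 5.36% Cd28 and 0.494% Il17a. Of the T cell genes, Cd3d and Foxp3 were in none of these 17 barcodes, Cd3e was in 1 and Trac in 2, where 2.26% of all Pac1-KO cells that passed held Trac. In WT there were 4 such barcodes. Their median depth was 8251 UMIs in Pac1-KO, against 5577 for all cells that passed. Tigit and Lag3, with 26 or fewer UMIs, had up to 57.9% and 100% of them in 10 barcodes. For the 7 more abundant genes the largest shares were 20.7% of Tnfrsf4 and 12.8% of Tnfrsf9 UMIs, both in Pac1-KO. Without them the ratios between the libraries were -0.39 for Ctla4, against 0.15 with them, -1.04 for Tnfrsf4, -1.24 for Tnfrsf9 and 0.68 for Cd28.

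The surrounding pathway was read in 71 further genes. Of 60 with at least 50 UMIs, 2 were at least 1.5-fold higher and 15 at least 1.5-fold lower in Pac1-KO, and their median was -0.25. That is 3.33% higher and 25.0% lower, against 8.2% and 12.8% of all genes tested. With ratios as counted the numbers were 5 higher and 6 lower (8.33% and 10.0%), and the share of all genes under that scaling is not given here. Tnfsf9, Lgals9, Klrg1, Cd200r4, Traf4, Birc3, Nfkb2 and Grap2, described here, were thus among those that pass only relative to the median gene. Birc2 (0.70), Traf5 (0.62) and Tnfrsf25 (0.61) pass as higher only as counted. Among ligands and counter-receptors, 1 of 11 was higher and 5 were lower. Lgals3, which encodes galectin-3, a lectin that binds LAG-3 among others, was the far exception at 9.99 CPM in WT and 91.6 CPM in Pac1-KO, a relative log2 ratio of 3.01. Tnfsf9, the ligand of 4-1BB, was counted in the same cells at 52.5 and 39.4 CPM and was lower by the 1.5-fold rule, in the same direction as its receptor. Icosl, the ligand of ICOS, was also counted in the cells, at 50.6 and 56.4 CPM, a level near that in the other library. A part of free RNA in the ligand counts was not tested. Cd274 and Pdcd1lg2, the ligands of PD-1, were at 40.2 and 33.2 CPM and at 25.8 and 36.6 CPM and stayed within 1.5-fold. Pvr, a ligand of TIGIT, had 3.41 and 2.16 CPM, a ratio of -0.85. The other lower ligands were Tnfsf18, the ligand of GITR, Cd200 and Lgals9, the ligand of TIM-3.

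Among 17 other receptors, 1 was higher and 5 were lower. The higher one was Cd200r3, at 0.586 and 1.11 CPM, a relative of Cd200r1 that also marks basophils and mast cells. It had only 32 UMIs in WT and 65 in Pac1-KO. Its share of thinned cells went the other way, at 0.118% in WT and 0.0914% in Pac1-KO. Of the 6 markers listed for these cells, Cpa3 (12.8 and 26.3 CPM), Mcpt8 (0.165 and 1.80 CPM), Ms4a2 (0.0550 and 0.189 CPM) and Fcer1a (0.220 and 0.343 CPM) were also higher in Pac1-KO, whereas Kit was lower (428 and 209 CPM). By share of thinned cells Fcer1a was lower in Pac1-KO, at 0.0393% and 0.0305%, whereas Cpa3, Mcpt8 and Ms4a2 were higher. At least 3 of the 6 were found in 0 WT and 2 Pac1-KO thinned cells, and their part in the Cd200r3 value was not tested. Havcr2, the gene of the inhibitory receptor TIM-3, had 3.17 CPM in WT and 1.15 CPM in Pac1-KO (-1.65), and Tnfrsf1b, a TNF receptor that also signals through TRAF2, had 38.7 and 16.4 CPM (-1.43). Klrg1, an inhibitory receptor for cadherins, had 197 and 131 CPM (-0.77). Slamf1 and Cd200r4 were the remaining lower receptors. Among 15 TNF receptor adaptors and targets, 3 were lower and none was higher relative to the median gene, whereas as counted none was lower and Birc2 and Traf5 were higher. They included Traf4 at 50.3 and 33.9 CPM (-0.76) and Birc3, an NF-kB target and ubiquitin ligase, at 186 and 133 CPM (-0.67), and the third was Nfkb2. Of 17 kinases, phosphatases and adaptors of the CD28 family and CD200 receptors, 2 were lower and none was higher, with a median of -0.01, a share of lower genes near the 12.8% of all genes. Among the lower ones was Grap2, an adaptor that binds CD28. Genes in this paragraph and the one before it that are named without a rank among the extremes were chosen after their values were seen.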

How the data were processed

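Lung ILC2s of 1 WT and 1 Pac1-KO library were profiled with 10x Genomics 3′ v3.1 chemistry. The deposited values were raw UMI counts per gene and barcode, which the authors made with Cell Ranger on the mm10 genome, with no normalization. Version 6.1.1 is named in the submitters' processing notes and 4.0.0 in the file header, and the annotation release is not given in the sources used here. Cells of several mice were pooled, so no cell can be assigned to an animal.

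Barcodes were kept if 500 or more genes were detected and no more than 10% of UMIs were mitochondrial. No doublet caller was run, and barcodes over 2 times the median UMIs (21.5% of WT, 19.4% of Pac1-KO) were left out in an alternative. UMIs were summed over cells and divided by the total to give CPM. Ratios are given relative to the median gene with at least 50 UMIs, and at least 1.5-fold was called higher or lower. For shares, status and classes each cell was thinned to 1500 UMIs, the deepest of 5 depths tried that kept 90% of cells of each library. Intervals are exact Poisson for levels, exact conditional binomial for ratios and Clopper-Pearson for shares, all at 95%. The ratios and the thinning were tested on simulated data. Python 3.11.15, numpy 2.4.6, scipy 1.17.1, pandas 2.3.3 and matplotlib 3.10.9 were used.

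Members and gene lists were chosen with earlier results of these data known. All 10 receptors are named. Of the pathway list, the rule named up to 4 genes with the largest ratios above and 6 with the largest below 1.5-fold among those with 200 UMIs, and only 1 met it above. The values of 1 listed gene are not reported here. Positions come from the GENCODE annotation of GRCm38 and promoter sequences from RefSeq. Alternatives covered scaling, thinning, the barcode filter, T cell markers, cell weights, the mix of classes, the UMI minimum and the fold.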

Additional observations from a re-analysis of the deposited data

How the results depend on the processing

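Each receptor's ratio between the libraries was recomputed under up to 11 alternatives, and no receptor past 1.5-fold changed direction. Of the receptors higher in Pac1-KO, 0 remained with thinned UMIs and 0 at 2-fold. Of those lower, 1 remained at 2-fold (Tnfrsf9), and a minimum of 10 UMIs brought the number to 5 by adding Tigit and Lag3. With classes weighted alike, Pdcd1 was at -0.39, past 1.5-fold in no direction. Leaving out all barcodes with 2 or more markers of the T cell list, which removed 54.0% of WT and 64.0% of Pac1-KO barcodes as Trbc1, Trbc2 and Cd3g were widespread, gave 3 receptors higher with Il5 (Icos, Tnfrsf18 and Pdcd1) and 3 higher with Calca, with Tnfrsf9 by Il5 still at 2.03 and 2.94 on fewer UMIs but by Il13 in Pac1-KO at 0.52, from 2.14, and moved Ctla4 between the libraries from 0.15 to -1.32. By Il13 status, 1 receptor (Tnfrsf9) was higher with all UMIs, 5 with the mean of cell fractions and 1 at 2-fold. By Calca status, 3 were higher at 2-fold, and 1 (Ctla4) was lower with all UMIs. Shares of all genes are given above for the main setting only, so these counts stand without one. The ratio of Cd28 by Calca status in WT turned to -0.1463 with thinning to 1000 UMIs. The cause of these changes was not tested. No paired analysis was possible because each genotype had 1 library. The alternatives that left out shared barcodes, barcodes with 2 of Cd3d, Cd3e, Trac, Cd4, Cd8a and Cd8b1, or the 10 barcodes with most UMIs of a gene were chosen after seeing the data. Of the 10 receptors, Tigit, Lag3 and Ctla4 had the fewest UMIs in both libraries, and the part of depth in this was not tested.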
